A study of Thlaspi arvense with 6 samples.

Results

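The loci that build fatty acids in the plastid were followed step by step through nectary maturation in pennycress (Thlaspi arvense, cultivar MN108). Members were chosen by their best Arabidopsis match: 33 Arabidopsis genes of glucose 6-phosphate import, plastid pyruvate dehydrogenase, acetyl-CoA carboxylase, acyl carriers, elongation, desaturation, release and export were listed, and 25 of them were matched by 27 of the 12335 pennycress loci in the table. Mature nectaries came from flowers equivalent to Arabidopsis stages 14 to 15 and secrete nectar, and immature nectaries came from stages 11 to 12, before secretion. Each stage had 3 samples, each a pool of hand-dissected nectaries (about 100 by the labels, a larger number by the study's methods), with separate plants, about 40 days old, behind each pool, and collection fell between 4 and 8 h after dawn. RNA was sequenced after TruSeq library preparation, and the values are the authors' upper-quartile normalized read counts, summed here over the contigs of a locus. A locus was tested where its mean reached 100 normalized counts in either stage, which all 27 members did.

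In plants, fatty acids are made in plastids rather than in the cytosol. Pyruvate dehydrogenase makes acetyl-CoA, acetyl-CoA carboxylase turns part of it into malonyl-CoA, and the growing chain is held by acyl carrier protein (ACP) while a cycle of condensation, reduction, dehydration and a further reduction lengthens it. A desaturase may add a double bond, thioesterases release the chain, and the free acid leaves for the rest of the cell, where it becomes membrane lipid, wax, cutin or storage oil.

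The reads counted on the listed contigs came to approximately 11.7 to 16.3 M in mature and 12.2 to 16.9 M in immature nectaries, estimated from the steps between low values. They are not the full sequencing depth. Ribosomal RNA took 27.5% to 62.9% of the normalized counts in mature and 12.6% to 42.3% in immature nectaries, and mature replicate 2, with the highest share, kept approximately 4.32 M reads for other nuclear transcripts. All 6 nectary markers looked for were found, with summed levels of 402211 to 452413 normalized counts in mature and 150367 to 261868 in immature samples. SWEET9, CWINV4, JMT and CRC were higher in mature nectaries, MNC1 was 4.32-fold lower and PIN6 did not pass. Of the markers found for other tissues, 5 of 6 pollen and anther, 3 of 4 phloem, 1 of 2 stomatal and the 1 carpel loci passed. Among all tested loci 64.3% passed in either direction. The 6 pollen and anther loci found, of 13 listed, summed to 2502 to 19663 in mature and 303 to 471 in immature samples. The 19663 was in mature replicate 1 and the 2502 in mature replicate 2. The 4 phloem loci, of 5 listed, summed to 230 to 277 in mature and 526 to 1419 in immature samples, with 1419 in immature replicate 2 and 560 in immature replicate 3. CSLD1 among the pollen and anther loci and SUC2 among the phloem loci did not pass. The carpel marker SHP1, the 1 found of 4 carpel and ovule markers, had 644 to 883 in mature and 1125 to 1444 in immature samples, and of the 2 stomatal markers found, of 7 listed, FAMA passed as lower and SLAC1 did not pass. The tapetum markers A9, A6 and ATA7, the ovule markers STK and INO and all 3 xylem markers were not in the table, whose contigs each reached at least 101 normalized counts in 1 sample. The part of these tissues in the results was not tested. In such bulk samples fewer cells of a type and less RNA per cell cannot be told apart.

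Most of the pathway was lower in mature nectaries. Of the 27 member loci, 23 were lower, 3 were higher and 1 (FAX1) did not pass, at an adjusted p under 0.05 from limma with Benjamini-Hochberg adjustment over all 11780 tested loci. Among all tested loci 35.9% were lower and 28.4% higher by the same rule, 64.3% in either direction. For the same 23 loci every mature sample lay below every immature one, against 39.1% of all tested loci, and for the same 3 loci every mature sample lay above, against 30.9%. The median log2 fold change (mature over immature) was -2.30 for the members and -0.09 for all tested loci. The mean was more than 4-fold lower in 14 members (9.97% of all tested loci), more than 5-fold in 13 (7.81%), more than 10-fold in 3 (3.64%) and more than 50-fold in 1 (0.56%).

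Without import and export, the 24 loci of the pathway proper together held 0.107% to 0.115% of the normalized counts of all loci in mature samples, and 0.349% to 0.365% in immature samples. The shares of the stages did not overlap, and the sums were 10429 ± 1417 normalized counts in mature nectaries against 30245 ± 2613 in immature ones (SD, n = 3 each), 2.90-fold lower. Mature replicate 2 had the most ribosomal RNA and the lowest pollen and anther sum of the mature samples. Within the mature stage, 22 of the 23 lower loci were lowest in replicate 2, against 65.3% of all lower loci. After median-ratio scaling, with a factor of 0.852 for that sample, 15 of 23 were. Without mature replicate 2, 22 member loci were lower and 4 higher, with a median log2 fold change of -2.10.

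**Figure D1:**
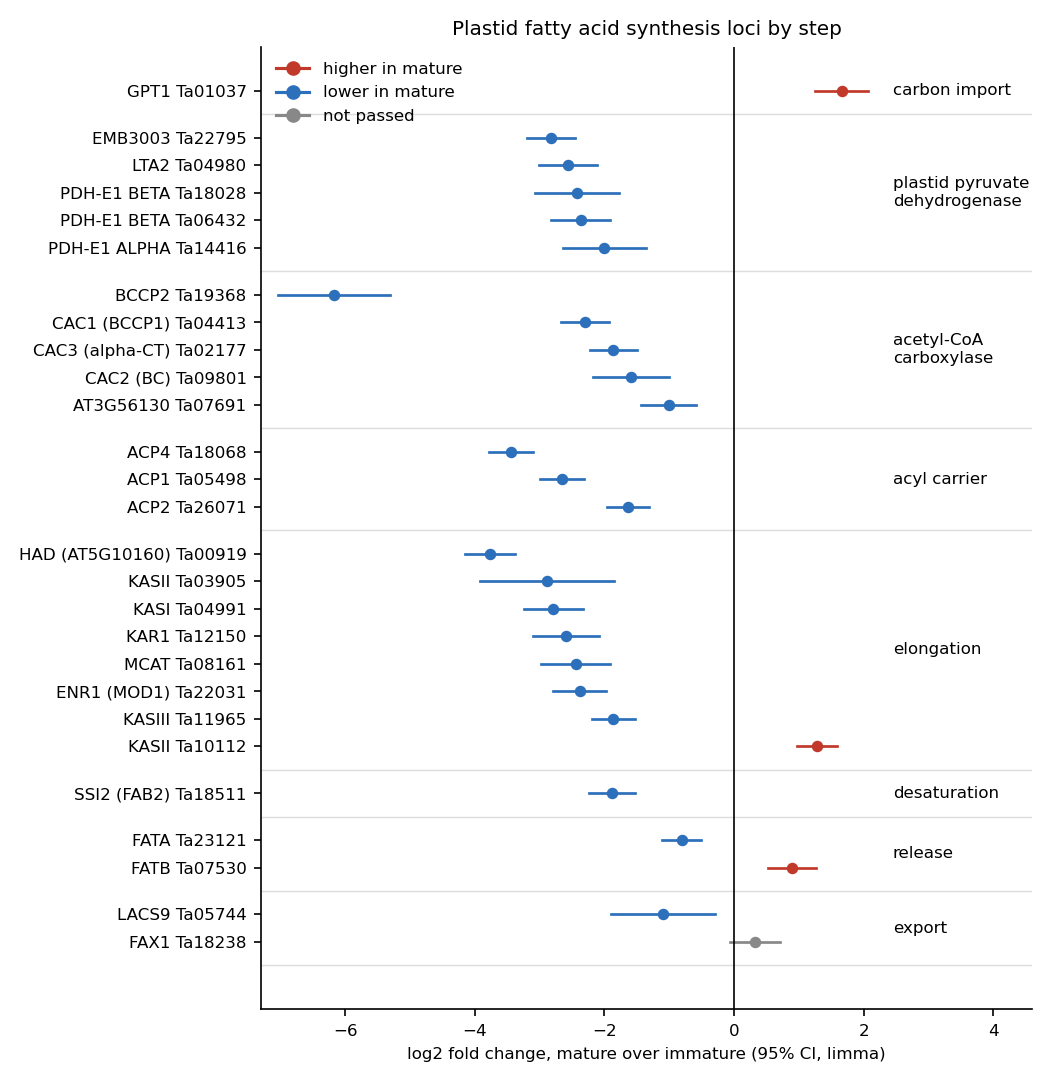
Log2 fold change, mature over immature nectaries, of the 27 member loci (horizontal axis; points, estimates; lines, 95% confidence intervals from limma), grouped by step from carbon import at the top to export at the bottom. BCCP2 lies farthest to the left at -6.18, and GPT1, KASII locus Ta10112, FATB and FAX1 lie to the right of 0, FAX1 with an interval that includes 0.

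The 1 member that carries sugar into the plastid was higher in mature nectaries. GPT1 (Ta01037), which exchanges glucose 6-phosphate for phosphate across the plastid envelope, had 3813, 3888 and 4671 normalized counts in mature nectaries against 1222, 1118 and 1594 in immature ones. All mature samples lay above all immature ones, with a 3.14-fold higher mean and a log2 fold change of 1.66 (standard error, SE, 0.18, limma adjusted p = 0.000105).

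Plastid pyruvate dehydrogenase is a complex of an E1 dehydrogenase with alpha and beta subunits, an E2 acetyltransferase that carries lipoic acid, and an E3 lipoamide dehydrogenase. All 5 loci found for it fell, by 3.90-fold to 7.08-fold in mean. EMB3003 (Ta22795), an E2, had 108, 78 and 94 normalized counts in mature nectaries against 656, 606 and 719 in immature ones (log2 fold change -2.82, limma adjusted p = 6.17e-06). LTA2 (Ta04980), the other E2, had 153, 101 and 111 in mature nectaries against 671, 637 and 846 in immature ones. Both E2 loci were thus low in each mature sample, and the mature values spread by less than the gap between the stages.

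E1 showed the same pattern at both of its beta subunit loci. Ta18028 and Ta06432, both matched to AT1G30120, had log2 fold changes of -2.43 (95% confidence interval -3.08 to -1.78) and -2.36 (-2.82 to -1.91), intervals that overlap almost wholly. Ta18028 had 499, 237 and 439 normalized counts in mature nectaries against 2005, 1678 and 2418 in immature ones, and Ta06432 113, 68 and 97 in mature nectaries against 479, 445 and 490 in immature ones. Reads may have been split between these loci. The alpha subunit, Ta14416, had 662, 321 and 542 normalized counts in mature nectaries against 1900, 1589 and 2451 in immature ones, 3.90-fold lower in mean (95% confidence interval of the log2 fold change -2.64 to -1.36, limma adjusted p = 0.000406). No locus had LPD1 or LPD2, the plastid E3 enzymes, or the second E1 beta gene AT2G34590 as its match.

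Acetyl-CoA carboxylase commits carbon to fatty acids. Its plastid form joins a biotin carboxylase, a biotin carboxyl carrier protein (BCCP) that bears the biotin, and a carboxyltransferase. All 5 loci found fell, and the carrier BCCP2 (Ta19368) fell the farthest of all members: it had 14, 4 and 9 normalized counts in mature nectaries against 667, 655 and 648 in immature ones. The stages were far apart, 73.0-fold in mean, with a log2 fold change of -6.18 (SE 0.38, limma adjusted p = 7.99e-06), the 41st lowest of the 11780 tested loci. The mature values rest on approximately 16, 2 and 7 reads, and with a pseudocount of 10 in place of 1 the log2 fold change was -5.17.

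BCCP1 (Ta04413), the other carrier, had 179, 121 and 152 normalized counts in mature nectaries against 758, 727 and 725 in immature ones, a fall of 4.89-fold in mean (log2 fold change -2.30, SE 0.16, limma adjusted p = 1.48e-05). The 95% confidence intervals of the 2 carriers, -7.04 to -5.31 for BCCP2 and -2.68 to -1.92 for BCCP1, did not overlap. Within each sample, which removes any scaling between samples, the log2 ratio of BCCP2 to BCCP1 was -3.58, -4.61 and -3.94 in mature and -0.18, -0.15 and -0.16 in immature nectaries. BCCP2 thus made up 3.2% to 7.25% of the counts of the pair in mature nectaries and 46.8% to 47.4% in immature nectaries. The ratio differed by -3.88 (exact permutation test, two-sided p = 0.1, the smallest that 3 samples against 3 can give), and by -2.94 with a pseudocount of 10.

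The loci of the carboxylase that do not carry biotin had smaller estimates, and the confidence intervals of CAC3 and CAC2 overlapped that of BCCP1. The carboxyltransferase alpha subunit CAC3 (Ta02177) had 437 ± 41.8 normalized counts in mature nectaries against 1603 ± 255 in immature ones, and the biotin carboxylase CAC2 (Ta09801) had 658 ± 195 and 1946 ± 402 (SD, n = 3 each). Ta07691, matched to AT3G56130, a protein known in Arabidopsis as BADC1, which resembles BCCP but lacks biotin and restrains the enzyme, had 801, 496 and 631 in mature nectaries against 1224, 1319 and 1266 in immature ones. Its log2 fold change of -1.01 (limma adjusted p = 0.00166) was the smallest fall in this step. It sums 2 contigs, with means 1.97-fold and 2.00-fold lower, the less abundant one at an adjusted p of 0.0558 in a fit over single contigs.

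Acyl carrier proteins hold the chain by a phosphopantetheine arm. Of 5 listed, 3 were found and all 3 fell. ACP4 (Ta18068), the main form of Arabidopsis leaves, had 134, 117 and 102 normalized counts in mature nectaries against 1268, 1403 and 1193 in immature ones, a fall of 10.9-fold in mean (log2 fold change -3.45, SE 0.15, limma adjusted p = 2.91e-06). ACP2 (Ta26071) had 928, 790 and 938 in mature nectaries against 2864, 2912 and 2498 in immature ones, a fall of 3.12-fold (log2 fold change -1.64, limma adjusted p = 3.71e-05). ACP1 (Ta05498) lay between them, at -2.66, and both of its contigs fell. The 95% confidence intervals of ACP4 (-3.79 to -3.11), ACP1 (-2.99 to -2.32) and ACP2 (-1.97 to -1.31) did not overlap. Acyl carrier proteins are short and alike, so that reads of one may have been counted on another.

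**Figure D2:**
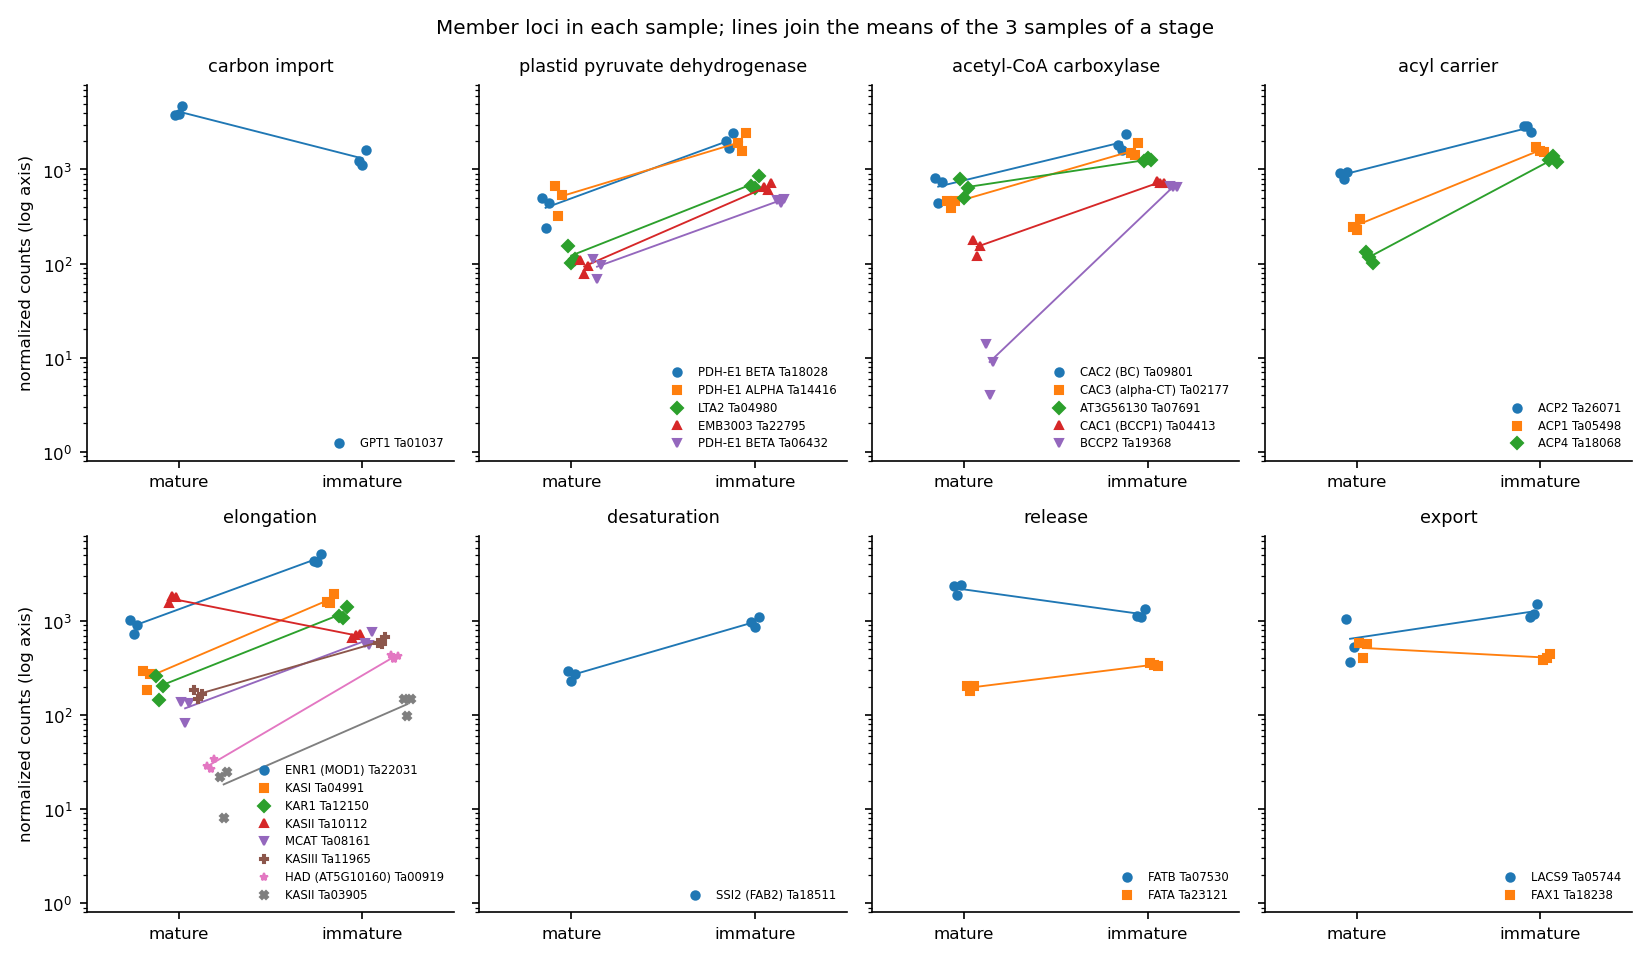
Normalized counts (logarithmic vertical axis) of the 27 member loci in the 3 mature and the 3 immature samples, 1 panel per step; each point is a sample and each line joins the means of the stages. Nearly all lines climb toward the immature stage, BCCP2 with means of 9 in mature and 657 in immature samples, while those of GPT1, KASII locus Ta10112, FATB and FAX1 descend.

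Elongation begins with malonyl transfer to ACP (MCAT) and the first condensation (KASIII), and goes on through KASI, which builds chains up to palmitoyl-ACP, the ketoacyl-ACP reductase KAR1, the dehydratase HAD and the enoyl-ACP reductase ENR1. The loci of these 6 enzymes all fell, by 3.65-fold to 14.0-fold. HAD (Ta00919) fell the most, with 29, 27 and 34 normalized counts in mature nectaries against 438, 399 and 420 in immature ones (log2 fold change -3.77, SE 0.17, limma adjusted p = 3.32e-06). The other HAD gene listed, AT2G22230, was not the match of any locus. KASI (Ta04991) had 291, 183 and 274 in mature nectaries against 1606, 1562 and 1942 in immature ones. ENR1 (Ta22031), encoded by MOD1 in Arabidopsis, had 1036, 722 and 907 in mature nectaries against 4340, 4261 and 5209 in immature ones. In each of these the mature samples lay far below the immature ones.

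The other 3 of these enzymes were lower as well. KAR1 (Ta12150) averaged 202 ± 56.0 normalized counts in mature nectaries against 1207 ± 186 in immature ones, MCAT (Ta08161) 118 ± 31.2 and 636 ± 113, and KASIII (Ta11965) 167 ± 17.0 and 608 ± 59.3 (SD, n = 3 each). Their log2 fold changes were -2.60, -2.44 and -1.86. Of these 6 loci, the 95% confidence interval of HAD (-4.15 to -3.38) lay below those of the other 5, the lowest of which reached -3.25 for KASI.

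KASII, which lengthens palmitoyl-ACP to stearoyl-ACP, was the exception in elongation, and its loci went opposite ways. Ta10112 had 1545, 1832 and 1779 normalized counts in mature nectaries against 662, 715 and 733 in immature ones, a 2.44-fold higher mean (log2 fold change 1.29, SE 0.13, limma adjusted p = 8.71e-05). Ta03905, also matched to AT1G74960, had 22, 8 and 25 in mature nectaries against 148, 97 and 147 in immature ones (log2 fold change -2.88, SE 0.45, limma adjusted p = 0.00073). With an immature mean of 131, Ta03905 entered the test only through that stage, so its call carries little weight of its own. Neither locus had overlapping stages.

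Within Ta10112 the contigs also differed. The more abundant contig had 1527, 1809 and 1757 normalized counts in mature nectaries against 547, 618 and 661 in immature ones, 2.79-fold higher in mean. The less abundant one had 18, 23 and 22 in mature nectaries against 115, 97 and 72 in immature ones, 4.51-fold lower in mean, and lay just below the limit for a test among single contigs. Its mean and that of Ta03905 were thus both lower in mature nectaries. Whether the contigs of Ta10112 belong to 1 gene, and whether KASII contigs share reads, was not tested.

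The within-sample log2 ratio of KASII (Ta10112) to KASI was 2.40, 3.32 and 2.69 in mature and -1.28, -1.13 and -1.40 in immature nectaries. The stages did not overlap and differed by 4.07 (exact permutation test, two-sided p = 0.1, the smallest possible). These counts are not corrected for contig length, so the level of such a ratio carries no meaning of its own, and the comparison lies between the stages.

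**Figure D3:**
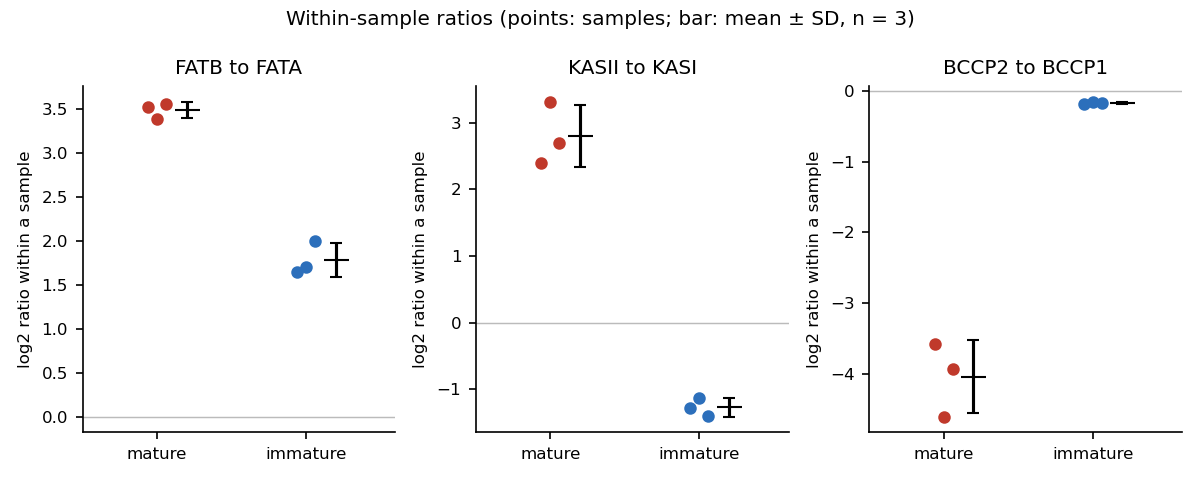
Log2 ratios within a sample of FATB to FATA, KASII (Ta10112) to KASI and BCCP2 to BCCP1 (vertical axes) in mature (left) and immature (right) nectaries. Points are samples and bars are the mean ± SD of 3; the stages do not overlap in any panel, with differences of 1.70, 4.07 and -3.88.

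Stearoyl-ACP desaturase puts the first double bond into the chain. SSI2 (Ta18511), the main such enzyme of Arabidopsis, had 295, 228 and 273 normalized counts in mature nectaries against 975, 862 and 1098 in immature ones, a log2 fold change of -1.88 (SE 0.16, limma adjusted p = 2.98e-05). SAD6 was not the match of any locus. Outside the member list, 3 further loci matched the same enzyme family. Ta04401, matched to AT5G16230, had 1150, 548 and 976 in mature nectaries against 42, 30 and 63 in immature ones, a 19.8-fold higher mean (log2 fold change 4.27, SE 0.34, limma adjusted p = 2.32e-05), and is named, after its values were seen, as the only higher locus among the other desaturases listed.

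Neither of the other 2 loci of the family, also named after their values were seen, passed as higher. Ta04402 (AT5G16240) averaged 90.7 ± 36.3 normalized counts in mature nectaries against 307 ± 48.3 in immature ones (SD, n = 3 each), and passed as lower. Ta14081 (AT3G02630) had 559, 379 and 486 in mature nectaries against 569, 580 and 754 in immature ones, at an adjusted p of 0.0776. The within-sample log2 ratio of Ta04401 to SSI2 was 1.96, 1.26 and 1.83 in mature and -4.50, -4.80 and -4.10 in immature nectaries, values chosen for their difference and given without a test.

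**Figure D4:**
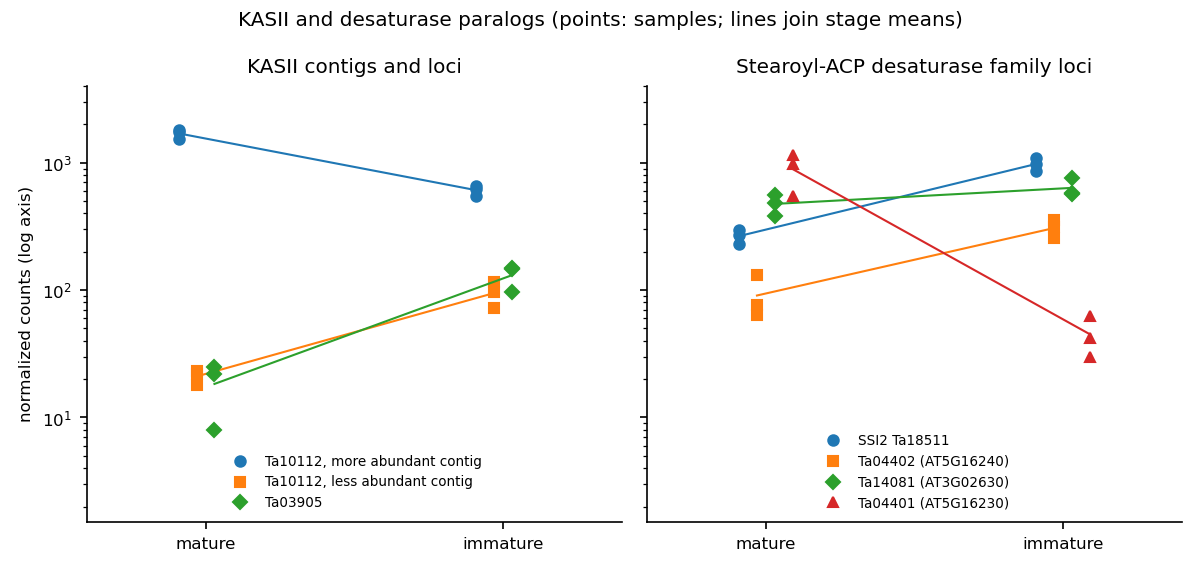
Normalized counts (logarithmic vertical axis) in mature (left) and immature (right) samples for the 2 contigs of KASII locus Ta10112 and KASII locus Ta03905 (first panel) and for 4 stearoyl-ACP desaturase loci (second panel); points are samples and lines join stage means. The more abundant contig of Ta10112 and Ta04401 are higher in mature nectaries, at 1698 against 609 and 891 against 45 normalized counts, while the other contig and loci have lower means in mature nectaries.

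Release splits into 2 thioesterases with different substrates: FATA acts mainly on oleoyl-ACP and FATB mainly on saturated chains. They moved in opposite directions. FATB (Ta07530) had 2335, 1869 and 2436 normalized counts in mature nectaries against 1119, 1097 and 1340 in immature ones, 1.87-fold higher in mean (log2 fold change 0.90, SE 0.16, limma adjusted p = 0.00153). FATA (Ta23121) had 203, 179 and 206 in mature nectaries against 358, 337 and 335 in immature ones, 1.75-fold lower in mean (log2 fold change -0.81, SE 0.13, limma adjusted p = 0.000827). The stages overlapped for neither. FATA2 (AT4G13050), also listed, was not the match of any locus.

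Within each sample the log2 ratio of FATB to FATA was 3.52, 3.38 and 3.56 in mature nectaries against 1.64, 1.70 and 2.00 in immature ones. The stages did not overlap and differed by 1.70 (exact permutation test, two-sided p = 0.1, the smallest possible). With Benjamini-Hochberg adjustment over the 3 ratios tested, each p remained 0.1. Of the 2 contigs of FATB, the more abundant one was 1.90-fold higher (adjusted p = 0.000526 over single contigs). The other had 836, 401 and 786 in mature nectaries against 282, 311 and 533 in immature ones, with overlapping stages and an adjusted p of 0.0659.

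Of the 2 export loci, 1 did not pass and the other passed by a narrow margin. FAX1 (Ta18238), which passes free fatty acids through the inner envelope, had 578, 405 and 569 normalized counts in mature nectaries against 381, 402 and 442 in immature ones, and did not pass (log2 fold change 0.32, 95% confidence interval -0.07 to 0.72, limma adjusted p = 0.127). It passed as higher with median-ratio scaling (0.43, adjusted p = 0.0116), with trimmed-mean scaling (0.42, adjusted p = 0.0138) and without mature replicate 2 (0.49, adjusted p = 0.0118), within a range of adjusted p over all alternatives of 0.0116 to 0.311. LACS9 (Ta05744), an acyl-CoA synthetase of the outer envelope, had 1052, 366 and 523 in mature nectaries against 1106, 1173 and 1519 in immature ones. Mature replicate 1 stood close to the lowest immature sample.

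LACS9 had a log2 fold change of -1.10 (SE 0.35, limma adjusted p = 0.0239). It no longer passed without mature replicate 2 (-0.76, adjusted p = 0.056), mature replicate 3 (-1.01, adjusted p = 0.0766) or immature replicate 3 (-0.96, adjusted p = 0.0842). Without mature replicate 1 the fall was larger (-1.52, adjusted p = 0.000486). The adjusted p over all alternatives ranged from 0.000486 to 0.0842.

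Genes that supply or serve the pathway were compared from lists of their own. Among all tested loci 35.9% were lower and 28.4% higher, with a median log2 fold change of -0.09. Among 7 loci of carbon supply to the plastid, 3 were lower, a share near that of all loci, none was higher and 4 did not pass. Their median was -0.56. The lower ones were subunits of plastid pyruvate kinase, PKp-beta1 (Ta16634, 341 ± 119 normalized counts in mature nectaries against 2611 ± 441 in immature ones) and PKp-alpha (Ta18648, 614 ± 251 and 2033 ± 305), and the plastid enolase ENO1 (Ta18363, 43.7 ± 5.86 and 315 ± 44.6). The remaining pyruvate kinase locus, Ta23497, named after its values were seen, joins a contig of PKp-beta2 with a contig of another gene (AT1G32450). The PKp-beta2 contig alone had 185, 179 and 151 in mature nectaries against 519, 486 and 500 in immature ones (adjusted p = 8.2e-05 over single contigs), whereas the sum did not pass. The phosphoenolpyruvate translocator PPT1 (Ta27200, 1130 ± 184 and 1259 ± 52.7) and the acetyl-CoA synthetase ACS (Ta23142, 1359 ± 251 and 1645 ± 425) did not pass.

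Loci that make cofactors or regulate the pathway were mostly lower. Of 9 loci of cofactors and regulators, 8 were lower, none was higher and 1 did not pass, where 35.9% of all tested loci were lower. The list had a median log2 fold change of -1.47. The biotin synthesis loci were among the lower ones: BIO2 (Ta18476), the last enzyme of the route, had 62, 29 and 35 normalized counts in mature nectaries against 631, 582 and 679 in immature ones, 15.0-fold lower in mean (limma adjusted p = 1.18e-05). BIO1 (Ta12911), an earlier step, had 8, 2 and 4 in mature nectaries against 124, 104 and 110 in immature ones. With an immature mean of 113, BIO1 entered the test only through that stage, so its call carries little weight of its own. Both loci were low in every mature sample. LIP1P (Ta00789), the plastid lipoate synthase that serves E2, fell by 3.35-fold.

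Regulators of the carboxylase were lower too. Ta11050 sums a contig of BADC3, with 246 ± 49.1 normalized counts in mature nectaries against 605 ± 33.7 in immature ones, and a contig of BADC2, with 14.0 ± 7.55 and 106 ± 14.3, and both contigs passed as lower. WRI1 (Ta07949), named after its values were seen, is the transcription factor that switches on this pathway in Arabidopsis seeds. It had 172, 119 and 126 in mature nectaries against 179, 169 and 206 in immature ones. WRI1 was the 1 locus of the cofactor and regulator list that did not pass (log2 fold change -0.42, 95% confidence interval -0.85 to 0.01, limma adjusted p = 0.0772). Its relative WRI3 (Ta03718), named after its values were seen, had 5, 0 and 4 in mature nectaries against 135, 109 and 85 in immature ones, and passed as lower (limma adjusted p = 0.000819). With an immature mean of 110, WRI3 entered the test only through that stage, so its call carries little weight of its own. Another relative, WRI4 (Ta06878), also named after its values were seen, was more abundant than WRI1 and WRI3. WRI4 had 623, 498 and 583 in mature nectaries against 1040, 1045 and 1107 in immature ones. Its mean was 1.87-fold lower in mature nectaries, and it passed as lower (limma adjusted p = 0.00057). The WRI1 stages overlapped and those of WRI3 and WRI4 did not.

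Of the 9 other desaturase loci in the list, 7 were lower, 1 was higher and 1 did not pass. Among all tested loci 35.9% were lower and 28.4% higher. The list had a median log2 fold change of -1.81. The higher one and the one that did not pass belong to the stearoyl-ACP desaturase family described above (Ta04401 and Ta14081), and the 6 loci of desaturases that act on membrane lipids were all lower. FAD8 (Ta03411), a plastid omega-3 desaturase, had 14, 10 and 18 normalized counts in mature nectaries against 233, 249 and 276 in immature ones (log2 fold change -4.11, limma adjusted p = 1.13e-05). FAD5 (Ta16728), FAD3 (Ta21329) and FAD6 (Ta16133) were 7.95-fold, 6.76-fold and 4.87-fold lower. FAD8, FAD5 and FAD6 work in the plastid and FAD3 in the endoplasmic reticulum. Loci that use or export acyl groups were mixed, with 3 lower, 1 higher and 6 not passing of 10. The lower and the higher share both lay below those of all tested loci, and the median log2 fold change was -0.06. The lower ones were LACS7 (Ta08099, 6.46-fold), the plastid glycerol 3-phosphate acyltransferase ATS1 (Ta21783, 2.90-fold) and LACS1 (Ta19655, 1.98-fold), and LACS6 (Ta01600) was higher at 1314 ± 306 in mature nectaries against 820 ± 104 in immature ones. LACS8 (Ta18265) did not pass.

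Ta13225, in the same list, joins contigs with opposite changes. Its sum did not pass (limma adjusted p = 0.222). A contig matched to LACS2, an enzyme of cutin synthesis in Arabidopsis, had 53, 31 and 63 normalized counts in mature nectaries against 1071, 984 and 1581 in immature ones, 24.7-fold lower in mean (adjusted p = 1.9e-05 over single contigs). The more abundant contig matched to LACS3 had 1790, 1132 and 1623 in mature nectaries against 856, 833 and 1169 in immature ones. The contigs of the 2 genes thus had opposite changes, with adjusted p = 0.0313 for that of LACS3.

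Some of the same intermediates are also made outside the plastid. Mitochondria hold their own pyruvate dehydrogenase and a small fatty acid synthesis system. Of 13 tested loci of these, 5 passed as lower, 2 as higher and 6 neither way, where 64.3% of all tested loci passed in either direction and 35.9% as lower. The share of lower loci was thus near that of all loci. Their median log2 fold change was -0.27, where the plastid members had -2.30. The E1 beta subunit MAB1 (Ta21659) had 1751, 1558 and 1720 normalized counts in mature nectaries against 1798, 1936 and 2386 in immature ones and did not pass (log2 fold change -0.27, limma adjusted p = 0.152). E1 ALPHA (Ta24498, 1316 ± 281 and 936.7 ± 277) and the lipoamide dehydrogenase locus Ta08854 (2242 ± 398 and 2526 ± 598) did not pass either, and Ta08854 joins contigs of 2 genes with opposite changes. No test compared the lists.

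Among the 7 mitochondrial loci that passed, Ta25250, matched to AT3G45770, an enoyl reductase, had 15175, 10604 and 12721 normalized counts in mature nectaries against 2108, 1993 and 3200 in immature ones (log2 fold change 2.42, limma adjusted p = 6.29e-05). The carrier mtACP2 (Ta21135) was 2.35-fold lower and the condensing enzyme mtKAS (Ta27276) 1.68-fold lower in mature nectaries. Another locus matched to mtKAS, Ta27277, named after its values were seen, had 104, 88 and 71 in mature nectaries against 102, 78 and 98 in immature ones. Ta27277 lay below the limit for a test. The 2 loci matched to IAR4, an E1 alpha subunit, went opposite ways, Ta20470 with 50, 25 and 42 in mature nectaries against 235, 199 and 217 in immature ones and Ta13037, named after its values were seen, at 1551 ± 342 and 931 ± 118.

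In the cytosol, where acetyl-CoA feeds wax and cutin chains, ATP-citrate lyase was lower at 4 of its 5 loci. The whole list of 6 loci had 4 lower, none higher and 2 not passing, where 35.9% of all tested loci were lower. Its median log2 fold change was -1.83. The lyase locus that did not pass was ACLA-3 (Ta07443, 328 ± 146 and 407 ± 67.0, limma adjusted p = 0.268), named after its values were seen. Ta01679 (ACLA-1) had 54, 18 and 42 normalized counts in mature nectaries against 557, 437 and 600 in immature ones, 14.0-fold lower in mean, and Ta18585 (ACLA-1), Ta16776 (ACLB-2) and Ta01664 (ACLB-2) were 2.74-fold, 4.89-fold and 4.48-fold lower. ACC1 (Ta22926), the cytosolic acetyl-CoA carboxylase, had 1545, 1398 and 1825 in mature nectaries against 1566, 1527 and 2130 in immature ones, with overlapping stages (log2 fold change -0.12, limma adjusted p = 0.57). The member loci of the plastid carboxylase step had no such overlap, but its plastid-encoded subunit ACCD, which was also listed, was not the match of any locus.

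**Figure D5:**
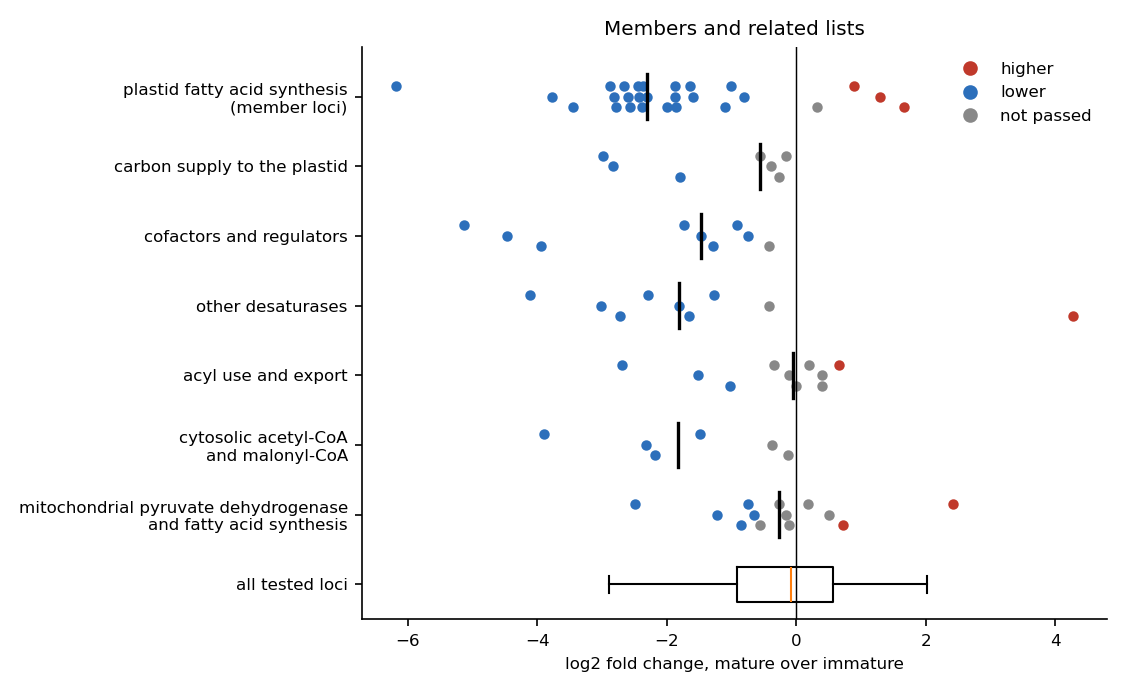
Log2 fold change, mature over immature (horizontal axis), of the member loci and of 6 related lists; each point is a tested locus, colored by its call, black bars are list medians, and the box shows all 11780 tested loci with whiskers at percentiles 5 and 95. The median of the members lies at -2.30 and that of all tested loci at -0.09.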

How the data were processed

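Per the paper's methods, the authors built a Trinity assembly for each stage and joined it to an existing pennycress transcriptome. They assigned reads to contigs by blastn and scaled the read counts by the upper quartile. The deposited scores are the scaled values after rounding, and a count model was therefore not applied. A genome build is not given in the sources read. Columns with the authors' means, ratios and p-values were not used. Contigs without a predicted protein (617 of 16074, none matching a member) were dropped, the rest summed by locus, and each locus named by its most abundant contig. Log2(sum + 1) was tested with limma 3.58.1 (R 4.3.3) with a variance trend, keeping loci whose mean reached 100 in 1 of the stages or both. A locus near that limit in 1 stage and low in the other entered only through the stage where it was high. The fit was checked only on simulated data with few changed loci and the same dispersion for every locus, unlike these data. Fold changes on this scale understate those of low loci, and p-values weigh the stage difference against the spread between pools, moderated over loci. Tables were made with pandas 2.3.3, scipy 1.17.1 and numpy 2.4.6 under Python 3.11.15, and figures with matplotlib 3.10.9.

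Members and lists were chosen with earlier results of these data known. Every member locus found is named, and of each related list up to 4 called loci with the smallest adjusted p and those not passing with a mean of at least 1000. Loci of the related lists outside this rule are marked as named after their values were seen. Approximate reads came from the scaling step in the low values of each sample. Alternatives were pseudocounts of 0.5 and 10, other filters, 3 rescalings, the highest contig, other moderation, a replicate block, voom weights, other thresholds and leaving out each sample. Voom weights at the deposited scaling, the fit over single contigs and ratios without a test were added after the data were seen.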

Additional observations from a re-analysis of the deposited data

How the results depend on the processing

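Across 19 other fits, 25 of the 27 member loci kept their direction and their call wherever tested, the exceptions being FAX1 and LACS9. With a replicate block the counts were again 23 lower and 3 higher, with a median of -2.30, and no member call changed. Same-numbered samples deviated from the stage means with correlations of -0.0679, 0.00657 and 0.205, so the numbers were not treated as pairs. Leaving out each sample in turn gave 22 to 23 lower and 3 to 4 higher member loci, and medians of -2.43 to -2.10. With a mean of at least 500 required, 23 members were tested, with a median of -2.0, and 1566 of all loci were lower and 1856 higher. With a ratio of means above 2 or below 0.5 added, 20 members were lower and 2 higher, and of all loci 2716 were lower and 1629 higher. Scaling to the total without ribosomal RNA and organelles moved the median of all loci to -0.25 and that of the members to -2.45. Rounded values of a few reads limit the folds of BCCP2, BIO1 and WRI3. The ratio of SAD6 to SSI2 could not be computed, as no locus matched SAD6.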
